A study of Mus musculus with 14 samples.

Results

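Genes that sense DNA damage and repair it were compared between splenocytes of immunized Sting gt/gt and WT mice. The group held 39 of 24909 genes tested, chosen by name for their roles in damage signalling, recombination, end joining and excision repair. The choice did not use their values, but it was made with earlier results of these data known. All 39 were measured well above background on all 14 arrays, and none was saturated. Each gene was read from its brightest probe, and 23 of the 39 had more than 1 probe on the array.

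RNA came from splenocytes of 7 WT and 7 Sting gt/gt mice of the C57BL/6 strain, immunized at 10 to 14 weeks of age and killed 2 weeks after CFA + CII (complete Freund's adjuvant with chick type II collagen), with 1 one-colour Agilent array for each mouse. Sting gt/gt mice carry the golden ticket allele in all cells, a chemically induced point change after which STING protein is not detected. The WT mice were bought from a vendor and the Sting gt/gt mice came from another colony, so mouse source and genotype cannot be told apart. No mouse without immunization was used here. Values are log2 signals relative to the 75th percentile of the same array, so 0 is that percentile and a difference of 1 is 2-fold. Sting1 itself was at 2.61 ± 0.17 in WT and 2.64 ± 0.10 in Sting gt/gt (SD, n = 7 each), which checks no label, since the probe reads RNA and a point change need not alter its amount.

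The scanner headers placed replicates 1 to 3 of both genotypes on scan day 1 and replicates 4 to 7 on scan day 2. Of all genes, 38.8% differed between the scan days at an adjusted p below the threshold of 0.05 (limma, Benjamini-Hochberg), against 0 in the authors' own table of log2 values. On scan day 2 the 4 Sting gt/gt arrays shared a slide that held no WT array, so slide and genotype cannot be told apart there. For that reason each difference is given over all 14 arrays and within each scan day. Spleens are mixed tissue, and fewer cells of a type and less RNA per cell cannot be told apart.

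A cell answers a DNA break in steps. The kinases ATM and ATR sense the break or stalled fork and pass the signal to CHK2 and CHK1 and to p53, while MDC1, RNF8, RNF168 and TRP53BP1 mark the chromatin around it. The break is then rejoined either by end joining, through Ku (Xrcc5 and Xrcc6), DNA-PKcs (Prkdc), Xrcc4 and Lig4, or by homologous recombination, which needs a sister chromatid and is used by dividing cells. In B cells the same machinery serves antibody genes, where uracil made by the deaminase AID is removed by UNG and the resulting breaks are joined during class switching. STING responds to cytosolic DNA through cGAS, so damaged DNA that leaks from the nucleus is one of its inputs.

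None of the 39 genes passed the test between the genotypes over the 14 arrays. At an unadjusted p below 0.05 in limma, 0 of 39 were called, beside 3.48% of all genes tested, and after Benjamini-Hochberg adjustment 1 of 24909 genes remained, which was no member of the group. By the exact permutation test over 3432 ways to part the arrays, 0 of 39 were below 0.05 as well, and the smallest two-sided p was 0.0618, for Ercc4. The differences ran from -0.26 to 0.27 on the log2 scale, with 19 genes higher and 20 lower in Sting gt/gt, and their median was -0.02 beside 0.02 over all genes. The 95% confidence intervals of all 39 lay between -0.83 and 0.60, and those of 28 lay within 0.5 on either side of 0. Neither this fit nor the permutation held a term for scan day, so the intervals and p-values include the spread between days. With scan day as a term, 0 of 39 were called as well.

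**Figure D1:**
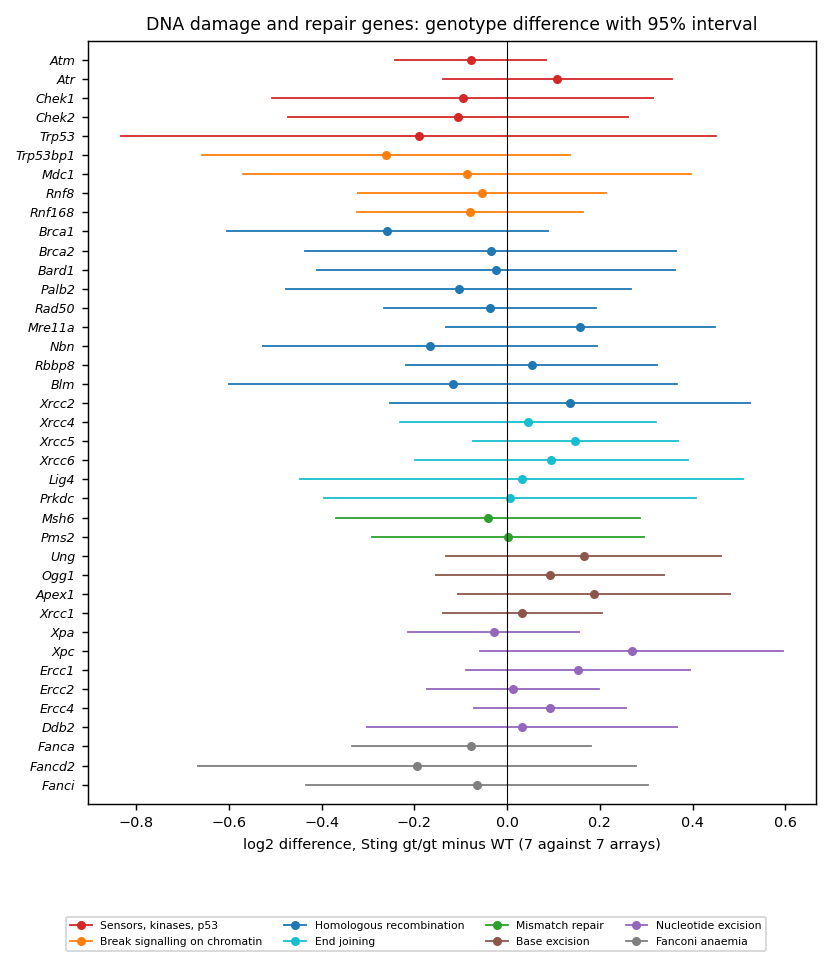
Each point is the log2 difference, Sting gt/gt minus WT, of 1 gene over 7 against 7 arrays, and the bar is its 95% confidence interval from limma; colours mark the role. Every interval crosses 0, and Trp53 has the widest, from -0.83 to 0.45. The fit held no term for scan day.

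Among the sensors and kinases, Atm, the kinase of double-strand breaks, had a median of -0.83 in WT, between -0.90 and -0.66, and a median of -0.89 in Sting gt/gt, between -0.95 and -0.78. The groups overlapped and the difference was -0.08 (SE 0.08). Trp53, which encodes p53, had a WT median of 0.15 (lowest -0.11, highest 1.34) and a Sting gt/gt median of 0.17 (lowest -0.24, highest 1.16). Its wide range was that of the scan days and not of the genotypes, and the difference was -0.19 (SE 0.30). Atr, Chek1 and Chek2 differed by 0.11, -0.10 and -0.11.

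Among the genes of homologous recombination, Brca1, which directs resection and loading of the recombinase, had a WT median of 1.53 (lowest 1.18, highest 2.11) and a Sting gt/gt median of 1.34 (lowest 0.71, highest 1.60). The groups overlapped, and its difference of -0.26 (SE 0.16) had the smallest limma p of the 10 genes of this role. Its partners Bard1, Brca2 and Palb2 differed by -0.02, -0.03 and -0.10, and the end-resecting factors Mre11a, Rad50, Nbn and Rbbp8 by 0.16, -0.04, -0.17 and 0.05. All 4 genes of break signalling on chromatin and all 3 of the Fanconi anaemia pathway, which unhooks crosslinks between strands, had values below 0, from -0.26 for Trp53bp1 to -0.05 for Rnf8, and none was called.

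Among the end-joining genes, Xrcc6, a subunit of Ku, had a median of 3.15 in WT, between 2.95 and 3.48, and a median of 3.30 in Sting gt/gt, between 2.78 and 3.66, a difference of 0.10 (SE 0.14). Prkdc, the kinase that Ku recruits, had a WT median of -1.48 (lowest -1.87, highest -0.96) and a Sting gt/gt median of -1.51 (lowest -1.71, highest -0.59). Its difference of 0.01 (SE 0.19) had no settled sign, since it turned negative under other scalings. All 5 end-joining genes and all 4 of base excision and single-strand break repair had values above 0, and none was called. Ung, which removes uracil from DNA, had a WT median of 6.37 (lowest 5.90, highest 6.52) and a Sting gt/gt median of 6.64 (lowest 5.99, highest 6.71), a difference of 0.17 (SE 0.14). Of the 6 nucleotide excision genes, 5 were above 0, with the damage sensor Xpc at 0.27 (95% interval -0.06 to 0.60). Of the 2 mismatch repair genes, Msh6 differed by -0.04 and Pms2 by 0.0015, and neither was called. The study's supplement lists Pms2, and no other member, among the DNA repair genes lower in Sting gt/gt. The probe and values behind that entry are not given in the sources used here.

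The 2 scan days gave different pictures. On scan day 1, 0 of 39 genes were called beside 3.86% of all genes, and on scan day 2, 5 of 39 (12.8%) were called beside 23.3% of all genes. Of these 5, Trp53bp1 and Chek2 were lower and Ung, Apex1 and Xpc were higher in Sting gt/gt, and none passed the adjustment over all genes. The sign of the difference was the same on both days in 16 of 39 genes, 8 higher and 8 lower, a share not computed over all genes. Those of the 5 that lie outside the fixed rule for named genes, Trp53bp1, Apex1 and Xpc, are described here after their values were seen, as are Ercc4, Lig4, Xrcc4 and the genes named below for their correlations.

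Trp53bp1, whose protein shields broken ends from resection and favours end joining in class switching, stood on scan day 2 at -0.49, -0.28, -0.15 and -0.26 in WT and at -0.60, -0.83, -0.87 and -0.96 in Sting gt/gt. The groups did not overlap, and the difference was -0.52 (SE 0.12, adjusted p = 0.0594 by limma). The exact permutation p was 0.0286 with n = 4 in each group, the smallest that 4 against 4 can give. In the arrays of scan day 1 it stood at -0.70, -1.41 and -0.74 in WT and at -0.35, -1.18 and -1.09 in Sting gt/gt, where the groups overlapped. Averaged over its 4 tested probes, the difference of scan day 2 was -0.27 and no longer called.

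Chek2, the kinase downstream of ATM, went opposite ways on the 2 days. In the first set of 6 arrays it stood at -1.36, -2.07 and -1.68 in WT and at -1.11, -1.58 and -1.39 in Sting gt/gt, a difference of 0.34 with overlapping groups. On scan day 2 it stood at -1.19, -1.15, -0.83 and -1.11 in WT and at -1.26, -1.43, -1.58 and -1.79 in Sting gt/gt, with no overlap and a difference of -0.44 (SE 0.14, adjusted p = 0.112 by limma). The change of the difference between the days was -0.78 (SE 0.26), with an exact permutation p of 0.0114 over 1400 rearrangements within days, and was -0.47 and not called with array weights and an intensity trend.

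Chek1, the kinase downstream of ATR, showed the reverse order. Values on scan day 1 were 0.03, -0.10 and 0.28 in WT and -0.19, -0.15 and -0.82 in Sting gt/gt, with no overlap and a difference of -0.46 (SE 0.22). On scan day 2 it stood at -0.71, -0.55, -0.42 and -1.08 in WT and at -0.32, -0.42, -0.70 and -0.63 in Sting gt/gt, a difference of 0.18. The change between the days was 0.63 (SE 0.27, exact permutation p = 0.0429), but averaged over both probes of Chek1 it was 0.30 and not called. It also lost its call in 7 of the 14 fits with 1 array left out, and was 0.42 without Sting gt/gt replicate 3. With Chek2, these were the only 2 of 39 genes called for a change between the days, beside 18.0% of all genes, and neither passed the adjustment.

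**Figure D2:**
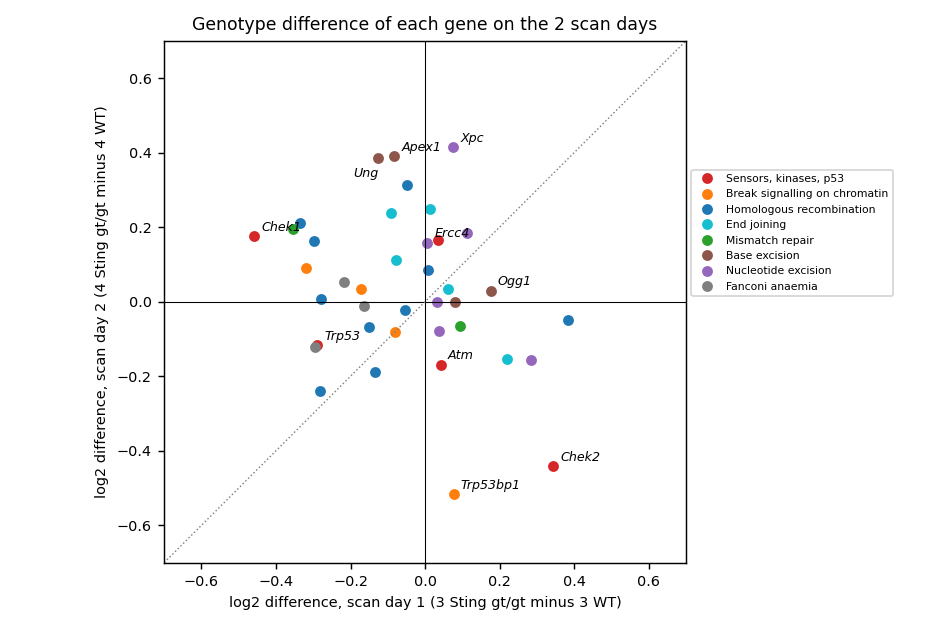
Each point is 1 gene, with its log2 difference, Sting gt/gt minus WT, on scan day 1 (3 against 3 arrays) on the horizontal axis and on scan day 2 (4 against 4) on the vertical axis. Named genes were called on scan day 2, called for the change between days or had groups without overlap on 1 day; Chek2 and Trp53bp1 lie lowest, at -0.44 and -0.52 on scan day 2.

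Ung, Apex1 and Xpc were the 3 genes called and higher on scan day 2, when 21 of the 39 had values above 0. Ung stood at 6.42, 6.25, 6.49 and 5.90 in WT and at 6.71, 6.53, 6.67 and 6.69 in Sting gt/gt, with no overlap and a difference of 0.38 (SE 0.14, adjusted p = 0.145 by limma). Apex1, the endonuclease that cuts the site left by UNG, stood at 1.33, 1.41, 1.91 and 1.61 in WT and at 1.78, 2.20, 2.04 and 1.80 in Sting gt/gt, where the groups overlapped (difference 0.39, SE 0.16). Xpc stood between 0.85 and 1.20 in the 4 WT arrays and at 1.42, 1.73, 1.61 and 0.91 in Sting gt/gt, with replicate 7 of Sting gt/gt apart from the other 3 (difference 0.41, SE 0.18). The call of Xpc was lost under 4 of 10 other settings and in 6 of the 14 fits with 1 array left out, at 0.31 to 0.42, and that of Apex1 under 1 of 10 settings, without scaling, and in 5 of the 14 fits, at 0.31 to 0.40. These 3 genes differed by -0.13, -0.08 and 0.07 on scan day 1.

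Groups without overlap were seen in 3 of 39 genes on scan day 1, beside 9.21% of all genes, and in 5 of 39 on scan day 2, beside 14.7%. Those of scan day 1 were Chek1 and Trp53, lower in Sting gt/gt, and Ogg1, the glycosylase of oxidised guanine, higher. On scan day 2 they were Atm, Chek2 and Trp53bp1, lower, and Ung and Ercc4, higher. The differences of Atm and Ercc4 were small, at -0.17 and 0.16, and neither was called by limma. Ercc4, whose product cuts DNA on the 5′ side of a lesion, was at 0.75 to 0.82 in WT and at 0.86 to 0.97 in Sting gt/gt on that day.

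Over all 14 arrays, 0 of 10 B cell, 0 of 7 plasma cell and 2 of 9 erythroid markers were called, beside 3.48% of all genes. More were called on scan day 2, as were 23.3% of all genes, and slide and genotype cannot be told apart there. On that day 3 of 9 neutrophil and 1 of 8 germinal centre markers were called, and 0 of the T cell, macrophage and monocyte or NK cell markers. Of 10 B cell markers, 7 were called and lower in Sting gt/gt on scan day 2, with their mean at 1.89 to 2.43 in WT and 1.52 to 1.86 in Sting gt/gt. Of 7 plasma cell markers, 4 were called and higher, with their mean at 1.13 to 1.47 and 1.51 to 1.93, and of 9 erythroid markers 6 were called and lower, at 4.58 to 5.10 and 4.26 to 4.60. On scan day 1 the differences of 9 of the 10 B cell markers were above 0, with 1 called. For the change between the days 8 of 10 were called, beside 18.0% of all genes, all toward lower values on scan day 2. Of the plasma cell markers 4 of 7 were called for that change, all toward higher values, and of the erythroid markers 1 of 9. All tested markers of these lists lay well above background on at least 7 arrays. Their part in the differences of Trp53bp1, Chek2, Ung, Apex1 and Xpc, and in the changes of Chek1 and Chek2 between the days, was not tested.

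**Figure D3:**
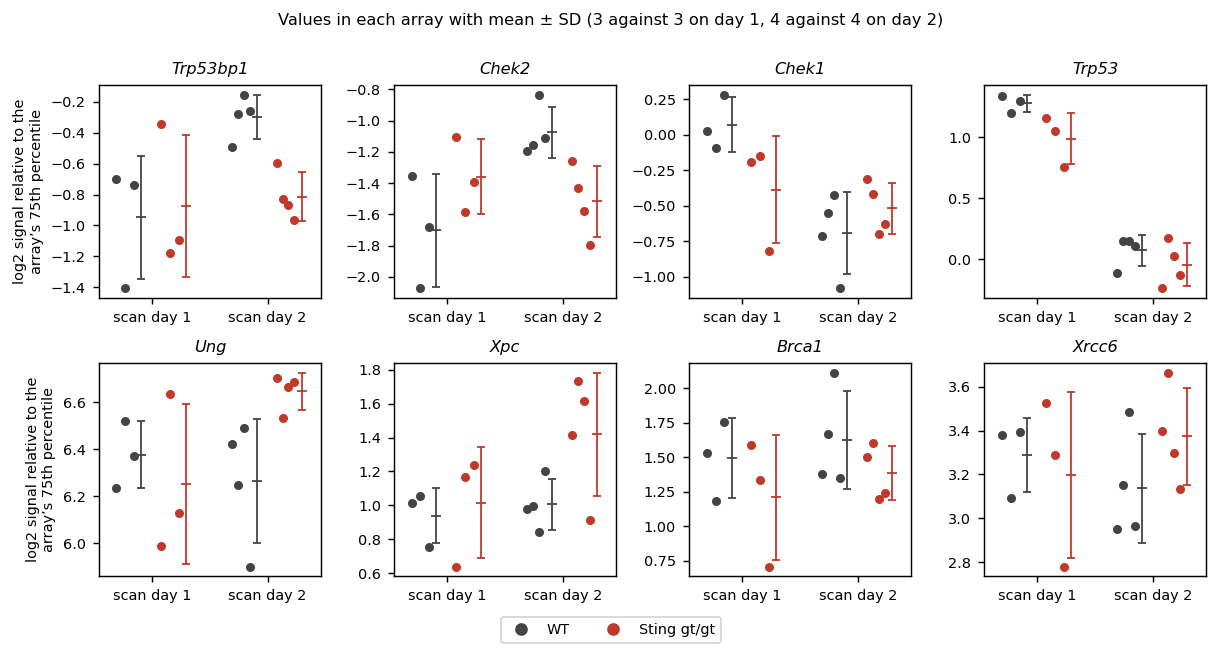
Each dot is the log2 signal of 1 array relative to its 75th percentile, WT in dark grey and Sting gt/gt in red, with mean and SD beside each set (n = 3 each on scan day 1, 4 each on scan day 2). The genotypes separate on scan day 2 for Trp53bp1, Chek2 and Ung, and Trp53 is lower in all arrays of scan day 2 than in any of scan day 1.

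The scan days themselves separated several genes of the group. At an adjusted p below 0.05 (limma), 12 of 39 differed between the days, 5 higher and 7 lower on scan day 2, beside 38.8% of all genes. Trp53 ranged from 0.75 to 1.34 on scan day 1 and from -0.24 to 0.17 on scan day 2, without overlap, and was 2.17-fold lower on scan day 2 (adjusted p = 7.4e-07). Mdc1, the scaffold that reads phosphorylated histone H2AX, fell by 0.69 and Lig4, the ligase of end joining, was higher by 0.80. Lig4 and its partner Xrcc4, higher by 0.39, also had no overlap between the days. In the authors' table of log2 values 0 of all 24909 genes differed between the days, and Trp53 differed by -0.13. Whether that table had been adjusted for the day is not given in the sources used here, so its 0 of 39 is no measure of the day in these genes. The day holds different mice, hybridisations and scans, which cannot be told apart.

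Few genes around the group were called. Of 113 other repair genes tested, 3 were called over the 14 arrays beside 3.48% of all genes. The count was 6 when replicate number was a block, a fit that called more of all genes as well. Aptx, which clears abortive ligation ends, was higher in Sting gt/gt by 0.24 (SE 0.10) and had a WT median of -0.28 (lowest -0.40, highest 0.01) and a Sting gt/gt median of 0.06 (lowest -0.27, highest 0.11). Ercc6, which starts repair in transcribed strands, fell by 0.40 (SE 0.16), from a median of -3.79 to -4.17. In both the groups overlapped, and neither passed the adjustment over all genes. Both lost their calls with slide as a random block.

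Targets of p53, which it switches on after damage, were read as a list. Of 23 tested, 1 was called (4.35%), beside 3.48% of all genes. In the fit that blocked on replicate number 2 were called, and more of all genes were called there as well. Bbc3, which encodes the pro-apoptotic PUMA, fell by 0.21 (SE 0.10), from a median of 0.77 (lowest 0.63, highest 1.14) to 0.55 (lowest 0.48, highest 0.83), a call lost under the block and under 5 other settings besides single arrays left out. The median over the 23 targets was -0.07, and 6 of them were above 0. Of the 17 genes of class switching and hypermutation, which include 10 members of the group, 1 was called, beside 3.48% of all genes. In the blocked fit 2 were called. The 1 was Apex2, a relative of Apex1. It fell by 0.32 (SE 0.14), from a median of -1.21 to -1.65 with overlap, and lost its call under quantile normalization, median centring, in the authors' table and with slide as a block. Of 20 proliferation genes, 0 were called, beside 3.48% of all genes, with a median of -0.05.

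The members did vary from mouse to mouse, and part of that variation followed the genes of dividing cells. The mean of 20 proliferation genes, which encode replication factors and mitotic proteins and share no gene with the group, ranged from 3.60 to 4.30 in WT and from 3.36 to 4.29 in Sting gt/gt. Since the scan days form separate clusters, correlations with this mean were computed within each day, over 6 and 8 arrays, for 78 correlations in all. The points share the array and its scaling, and 20 of the values on 1 axis are averaged from the same hybridisation. Of the 39 genes, 9 (23.1%) had a Pearson r of at least 0.8 on both days, beside 3.76% of all genes outside the proliferation list. The median r of the group on the 2 days was 0.77 and 0.57, against -0.04 and -0.0016 over all genes.

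Fanci, whose product is clamped onto crosslinked DNA with FANCD2, followed the proliferation genes closely on both days. Its values were 1.24, 0.71 and 1.22 in WT and 1.37, 0.84 and 0.31 in Sting gt/gt, where the proliferation mean was 4.19, 3.68 and 4.28 and 4.29, 3.92 and 3.36. The correlation was r = 0.99 and rho = 0.94 (exact permutation p = 0.00278 and 0.0167, n = 6). On scan day 2 it was r = 0.90 and rho = 0.93 (exact permutation p = 0.0034 and 0.00223, n = 8). Without the 2 arrays farthest from the median of the proliferation mean, r was 0.97 and 0.99, over few arrays, above all on scan day 1. With all arrays of the day, both days passed the Benjamini-Hochberg adjustment over the 78 correlations (adjusted permutation p = 0.0271 on each).

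Of the 39 genes, 7 passed that adjustment on both days, Rnf8, Rnf168, Brca1, Bard1, Rad50, Xrcc6 and Fanci, and 24 of the 78 correlations passed in all, 12 on each day. With Spearman's rho 7 of 78 passed, 6 of them on scan day 2. Xrcc6 gave r = 0.98 and rho = 1 on scan day 1 and r = 0.83 and rho = 0.86 on scan day 2. Rnf168, the ubiquitin ligase that marks chromatin for TRP53BP1, gave r = 0.96 and 0.90. The 2 farthest arrays were replicates 2 of WT and 3 of Sting gt/gt on scan day 1. On scan day 2 they were replicates 7 of both genotypes. Without them, over few arrays, r stayed between 0.72 and 0.99 for Rnf8, Rnf168, Brca1, Rad50, Xrcc6 and Fanci. On scan day 1 the relation of Bard1 (r = 0.92, then 0.46), Brca2 (0.88, then 0.05), Rbbp8 (0.83, then -0.46) and the helicase gene Blm (0.81, then -0.41) rested on those 2 arrays.

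The roles differed in how they followed the proliferation mean, given here as a description. All 10 genes of homologous recombination, all 4 of break signalling on chromatin, both of mismatch repair and all 3 Fanconi genes had r above 0 on both days. The median r of the recombination genes was 0.86 and 0.84 on the 2 days. The 6 nucleotide excision genes had a median r of -0.38 and -0.08, and the damage sensor Ddb2 had r = -0.61 on each day, with neither passing the adjustment. Atm, Xpa and Ddb2 were the 3 genes with r below 0 on both days, and Atm passed on scan day 1 alone (r = -0.96, against -0.05 on scan day 2), a difference between days that was not tested. Among the end-joining genes Xrcc6 stood apart from Xrcc4, at r = 0.15 and -0.08, and from Lig4, at -0.37 and 0.19. The other repair genes ran close to the members, with 25 of 112 (22.3%) at r of 0.8 or more on both days, and of 23 p53 targets 1 did.

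**Figure D4:**
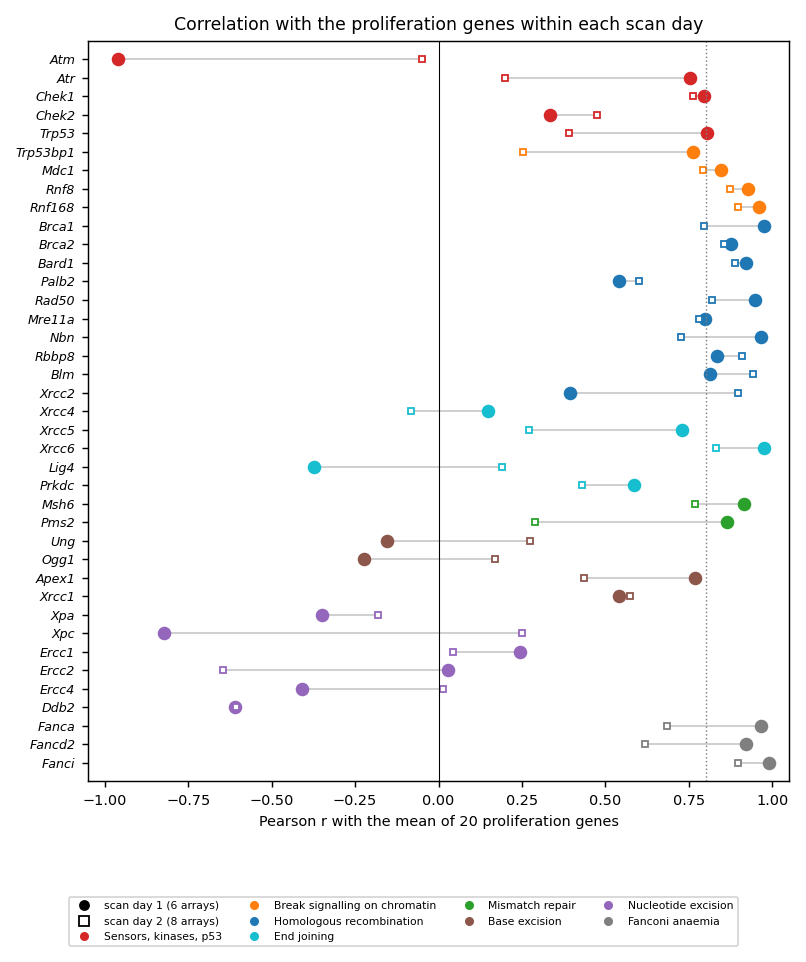
Pearson r of each gene with the mean of 20 proliferation genes, within scan day 1 (filled circles, 6 arrays) and scan day 2 (open squares, 8 arrays), coloured by role; the dotted line is 0.8. Genes of homologous recombination and chromatin signalling lie to the right on both days, while nucleotide excision genes lie around or left of 0.

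Other lists were set against the proliferation mean in the same way, for 16 correlations of 8 marker lists. The mean of 9 erythroid markers had r = 0.98 on scan day 1 (exact permutation p = 0.00139, adjusted over the 16, 0.0222, n = 6) and r = 0.58 on scan day 2 (exact permutation p = 0.14, n = 8). B cell markers had r = -0.85 and -0.43. No list but the erythroid one passed the adjustment, and that on scan day 1. Red cells had been lysed before RNA was made. The part of erythroid precursors in the correlations of the repair genes was not tested.

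**Figure D5:**
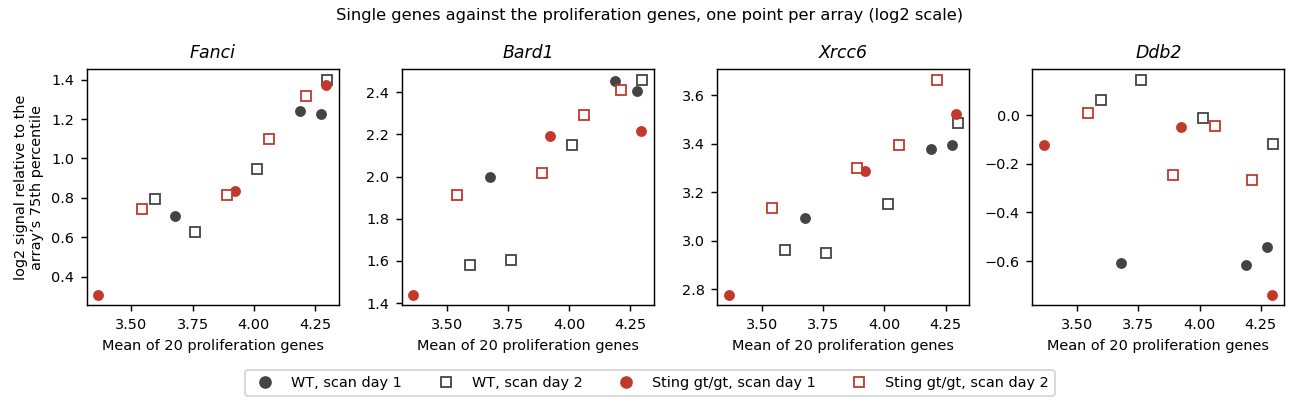
Log2 signal of 4 genes against the mean of 20 proliferation genes, 1 point per array, WT in dark grey and Sting gt/gt in red, filled circles for scan day 1 and open squares for scan day 2. Fanci, Bard1 and Xrcc6 increase along the axis, and Ddb2 decreases.

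The promoters of the group were read for the short motifs of cell-cycle genes. RefSeq promoters (GRCm38.p6, 250 bases before to 50 after the start) were at hand for 31 of the 39 genes, 1 of them with a second start, which makes 32 promoters. The E2F motif was searched as TTTCCCGC, TTTGGCGC, TTTCGCGC or TTTGCCGC on both strands and was found in 6 of 32 promoters of the group (18.8%). It was in 2.26% of all 32851 promoters, 5 of 18 of the proliferation genes and 9 of 108 of the other repair genes (8.33%). The 6 of the group were Xrcc6, Brca2, Bard1, Mdc1, Msh6 and Chek2. Of the 7 promoters of genes with r of at least 0.8 on both days, 3 held it, those of Xrcc6, Brca2 and Bard1, and of the 25 others 3 did. The CHR motif (TTTGAA or TTCGAA) was in 4 of 32 (12.5%) beside 19.2% of all, the CCAAT box in 20 of 32 (62.5%) beside 37.4%, and the p53 decamer in 2 of 32 beside 8.36%. Of the 7 promoters of correlated genes, 3 held the CCAAT box, 2 the CHR motif and 0 the p53 decamer. Of the 25 others, 17, 2 and 2 did. A match describes the letters and not a bound site.

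The 250 bases before the start are shown for the 5 genes whose E2F motif lies there, 5′ to 3′ in the sense of the gene, with the motif in capitals. They lie at chr15:82016119-82016368 (plus strand) for Xrcc6, chr5:150522371-150522620 (plus strand) for Brca2, chr1:71102973-71103222 (minus strand) for Bard1, chr17:35841248-35841497 (plus strand) for Mdc1 and chr5:110839733-110839982 (plus strand) for Chek2. The first base of the motif lies 46 bases before the start in Xrcc6, 168 in Brca2, 209 in Bard1, 16 in Mdc1 and 152 in Chek2. In Xrcc6, Brca2 and Chek2 it reads on the opposite strand, and of these 5 genes Chek2 had the lowest r with the proliferation mean (0.33 and 0.47).
Xrcc6: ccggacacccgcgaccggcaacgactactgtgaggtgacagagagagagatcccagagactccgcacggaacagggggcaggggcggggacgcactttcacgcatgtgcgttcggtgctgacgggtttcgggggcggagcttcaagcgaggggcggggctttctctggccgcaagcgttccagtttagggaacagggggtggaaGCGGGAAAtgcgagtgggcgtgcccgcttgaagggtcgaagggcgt
Brca2: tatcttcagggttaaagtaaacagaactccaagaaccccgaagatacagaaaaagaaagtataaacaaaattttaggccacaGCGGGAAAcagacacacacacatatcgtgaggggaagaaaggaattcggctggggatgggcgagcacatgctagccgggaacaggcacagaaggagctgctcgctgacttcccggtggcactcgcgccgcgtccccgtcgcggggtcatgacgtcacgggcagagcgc
Bard1: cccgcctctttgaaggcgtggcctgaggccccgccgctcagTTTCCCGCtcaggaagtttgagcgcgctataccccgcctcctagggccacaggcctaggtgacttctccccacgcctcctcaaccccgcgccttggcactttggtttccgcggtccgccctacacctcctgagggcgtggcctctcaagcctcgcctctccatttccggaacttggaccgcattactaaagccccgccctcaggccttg
Mdc1: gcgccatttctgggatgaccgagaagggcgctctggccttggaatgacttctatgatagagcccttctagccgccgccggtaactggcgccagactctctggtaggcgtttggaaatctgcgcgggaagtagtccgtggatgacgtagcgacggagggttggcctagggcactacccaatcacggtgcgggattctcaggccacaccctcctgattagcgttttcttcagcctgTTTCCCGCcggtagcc
Chek2: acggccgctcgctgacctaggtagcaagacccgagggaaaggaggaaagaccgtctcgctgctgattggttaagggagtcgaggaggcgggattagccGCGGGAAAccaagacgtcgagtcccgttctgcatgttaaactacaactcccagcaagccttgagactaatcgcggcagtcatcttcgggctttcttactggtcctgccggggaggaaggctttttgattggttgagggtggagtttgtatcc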

How the data were processed

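Splenocyte RNA of 7 WT and 7 Sting gt/gt mice was hybridised to one-colour Agilent arrays. The deposited intensity values were made by the authors (Feature Extraction, Agilent, version 11.0.1.1) and are background-corrected and not normalized between arrays. The authors also deposited a table of log2 values, whose normalization is not given in the sources used here; it served as an alternative, and since no gene differs between the scan days there, it may hold a correction for the day. Spots flagged as outliers were dropped, log2 intensities were set relative to the 75th percentile of the array and repeated spots were averaged. A probe was kept where at least 7 of 14 arrays had it well above background (31767 probes), and probes were named by accession through RefSeq, which matched 32994 of 56605 (58.3%). The number of arrays limits the precision.

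Groups were compared by limma 3.58.1 (lmFit, eBayes) in R 4.3.3 without covariates. A call is an unadjusted p below 0.05, with Benjamini-Hochberg adjustment beside it. The fit was run on simulated data with independent noise in each array. Arrays of the same slide correlated here at 0.43 (consensus over genes), which that simulation did not hold, so it does not test the p-values under shared slides. Exact permutation tests were two-sided; 3 against 3 cannot go below 0.1. Mice are taken as 1 per array. The p-values measure the spread between these samples, which for the genotype over 14 arrays includes that between scan days. The 39 genes, the lists and the rule for named genes (members called over 14 arrays or in 1 direction on both days, members without overlap and with a called change between days, Trp53, Atm, Brca1, Prkdc, Xrcc6 and Ung in any case, and of the other lists the genes called) were chosen with earlier results of these data known. The study's heat map used the same threshold on p. The labels number both genotypes 1 to 7. Deviations of same-numbered arrays correlated at 0.16 to 0.53, and at -0.41 to 0.25 once scan-day means were removed, so the pairing comes with the scan day. Alternatives covered scaling, background, filter, probes, test, block, slide and each array left out; those for the correlations were chosen after seeing the data. One called gene of the other repair genes is not reported here. For normexp the median signal stood in for the mean signal.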

Additional observations from a re-analysis of the deposited data

Results flagged for a closer look

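In 78 sets of 7 arrays, 1 for each gene and genotype, 2 held an array far from the other 6, where chance gives about 1 in 20. That rate is for arrays of a single batch, while each set here joins 2 scan days. Msh6, the mismatch sensor, was at 2.55 in replicate 3 of Sting gt/gt, below the other 6 arrays of that genotype. That array also had the lowest proliferation mean, at 3.36. Ddb2 was at -0.74 in replicate 1 of Sting gt/gt. On the same scan day it was at -0.62, -0.61 and -0.54 in WT and at -0.05 and -0.12 in replicates 2 and 3 of Sting gt/gt.

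The genotype difference changed between the scan days by a tested interaction in 2 of 39 genes, beside 18.0% of all genes. Slide and genotype cannot be told apart on scan day 2. Chek1 changed by 0.63 and Chek2 by -0.78 on the log2 scale, scan day 2 minus scan day 1 (exact permutation p = 0.0429 and 0.0114), with adjusted p of 0.244 and 0.137 by limma. The change of Chek1 lost its call in 7 of the 14 fits with 1 array left out and was 0.42 without Sting gt/gt replicate 3, while that of Chek2 lost its call with array weights, at -0.47. The lowest value of Chek1 on scan day 1, -0.82, was in the array with the lowest proliferation mean. Its correlation with that mean on that day did not pass the adjustment (r = 0.80, adjusted exact permutation p = 0.111, rho = 0.37, and r = 0.39 without the 2 farthest arrays), and the part of it in the difference was not tested.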

How the results depend on the processing

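The count of 0 of 39 genes called over the 14 arrays held under 14 of 15 settings that keep all arrays and was 4 with array weights plus an intensity trend (Trp53bp1, Ung, Apex1 and Xpc). Under that setting 4360 of all 24909 genes were called, so the 4 are no result about the members. Leaving out single arrays gave 0 to 1, the 1 being Trp53bp1 without WT replicate 2 and Xpc without Sting gt/gt replicate 1. The replicate block left it at 0, and the block changed no call of a member. The median difference of the group stayed between -0.08 and 0.04.

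On scan day 1 the count of 0 became 1 without scaling, 2 with normexp and 6 with array weights, and 0 to 3 with single arrays left out (3 without Sting gt/gt replicate 1). On scan day 2 the count of 5 became 3 without scaling and 8 with array weights, and 3 to 8 with single arrays left out (8 without WT replicate 6; 3 without WT replicate 4 or 5 or Sting gt/gt replicate 5 or 6). The 2 genes called for a change between days became 4 with median centring, 4 with normexp, 4 with the stricter filter and 6 with array weights, and 1 to 6 with single arrays left out. The 12 genes that differed between the scan days became 6 without scaling and 0 in the authors' table, beside 31.4% and 0% of all genes. They became 5 to 11 with single arrays left out. Shares of all genes called within days or for the change between days were not tallied under these settings. Those counts are therefore no result about the members.

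The 3 other repair genes became 10 in the authors' table, 5 with the mean over probes, 15 with array weights, 6 with the replicate block, 10 with scan day as a term, 0 with the random slide block and 5 by the methods' t-test, and 1 to 6 with single arrays left out. The 1 target of p53 became 0 with median centring, normexp or no filter, 2 without scaling, with the replicate block or with slide as a fixed block, and 3 in the authors' table, with the mean over probes, array weights or scan day as a term, and 0 to 2 with single arrays left out. The 1 class switching gene became 0 with quantile normalization, median centring, the authors' table and slide as a fixed or random block, 2 without scaling or with the replicate block and 5 with array weights, and 0 to 3 with single arrays left out. The proliferation genes gave 0 to 1. Counts over all genes moved under several of these settings as well, as given next.

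The 868 genes called over all genes became 1928 in the authors' table, 4360 with array weights, 1415 with the replicate block, 1812 with scan day as a term and 445 with the random slide block, and 496 to 1967 with single arrays left out. The 9 genes with r of at least 0.8 on both days became 14 with median centring and 6 in the authors' table, beside 5.44% and 2.77% of all genes, and 7 to 13 with single arrays left out. Bard1, Fanci and Rnf168 were among them in all 22 settings.

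Direction turned in some genes, among them Xpc, which had the largest genotype difference of the 39, and Nbn and Atr, which had passed between the days. Prkdc became -0.0057 with median centring, -0.048 without scaling, -0.023 in the authors' table and -0.048 with array weights, and -0.12 to 0.070 with single arrays left out. With slide as a fixed block, Atm became 0.014, Ung -0.11 and Xpc -0.049. That fit estimates the genotype from replicates 1 to 3 of WT and 1 and 2 of Sting gt/gt alone, whose slides hold both. It is thus an estimate from scan day 1 set beside one over 14 arrays. In the authors' table the day difference of Atr became -0.053, of Nbn 0.11 and of Xpa -0.049. The cause was not tested.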
